A study of Mus musculus with 3 samples.

Results

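Visceral white adipose tissue (VWAT) of mice kept on a high-fat diet (HFD) and injected weekly with rapamycin was compared, gene by gene, with that of mice on the same diet injected with vehicle. The comparison used 2 of the 3 pooled arrays of the series, 1 for the rapamycin mice (HFD-Rapa) and 1 for the vehicle mice (HFD-Ve), and covered all 10603 genes with a detected probe. The members were chosen by the labels of the 2 arrays alone. All mice were C57BL/6JRj, a common inbred strain, and the labels give an age of 28 weeks and 22 weeks of injections. HFD-Rapa mice received rapamycin at 2 mg/kg into the peritoneum after 5 weeks of HFD, and HFD-Ve mice received the vehicle solution on the same schedule. By the methods, the age at the start of HFD plus these 5 weeks and the 22 weeks of injections exceeds 28 weeks. Which age is right is not known. The fat came from around the gonads, and RNA of 5 mice was pooled for each array. The study used male and female mice, and it is not stated which sex was pooled. The 3rd array, from vehicle mice on the low-fat control diet (LFD in the labels, regular chow in the methods), is given beside the others as a reference level. It entered no count of differences, but it took part in the normalization and in the choice of detected probes.

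Rapamycin binds the small immunophilin FKBP12, and the drug and protein together block mTOR complex 1, a kinase that couples nutrients and growth factors to protein synthesis, ribosome production and cell growth and that restrains autophagy. mTOR complex 2, which acts on AKT and the actin cytoskeleton, is not bound directly but can be depleted under long exposure. VWAT is a mixture of adipocytes, fibroblasts and progenitors, vessels, immune cells and the mesothelial sheet that covers the organ, so the RNA of an array sums over all of them.

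With 1 pooled array per group there is no replicate spread between mice, and no test or p-value was possible. Each difference is a log2 ratio of the HFD-Rapa to the HFD-Ve array, and a gene is counted as higher or lower when the 2 arrays differ by at least 1.5-fold. The only internal measure of error is the spread between probes that target the same gene. It covers neither differences between mice nor those between arrays, since the probes share a pool and an array. Among 3941 genes with several kept probes, the difference had an SD of 0.21 between probes of a gene on the log2 scale.

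Of the 10603 genes, 907 were at least 1.5-fold higher with rapamycin (8.55%) and 802 at least 1.5-fold lower (7.56%). Counts of higher and lower genes in the lists below are to be read beside these shares. The middle of the distribution was narrow. The median difference was 0.02, the 25th and 75th percentiles were -0.22 and 0.26, and 3334 genes (31.4%) differed by less than 1.1-fold. The extremes were longer on the lower side, where 226 genes were at least 2-fold lower and 14 at least 4-fold lower, against 165 and 5 on the higher side. The balance between the directions depended on the scaling. Scaling each array to its median moved the median over all genes from 0.02 to -0.09, and with it the share of higher genes among those past 1.5-fold from 53.1% to 36.0%. Differences below are therefore to be read relative to the bulk of genes, and medians close to 0, such as those of the collagens, the proteasome, the translation factors and the FK506-binding proteins, changed sign under some scaling. Probe brightness mattered less. From the dimmest to the brightest of 5 equal groups of genes the share of higher genes went from 9.38% to 6.79% and the share of lower genes from 8.11% to 7.40%. Of the genes past 1.5-fold, 209 were not detected on their dimmer array, so their fold is only a lower bound, and 91 of these were still past 1.5-fold at that bound.

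**Figure D1:**
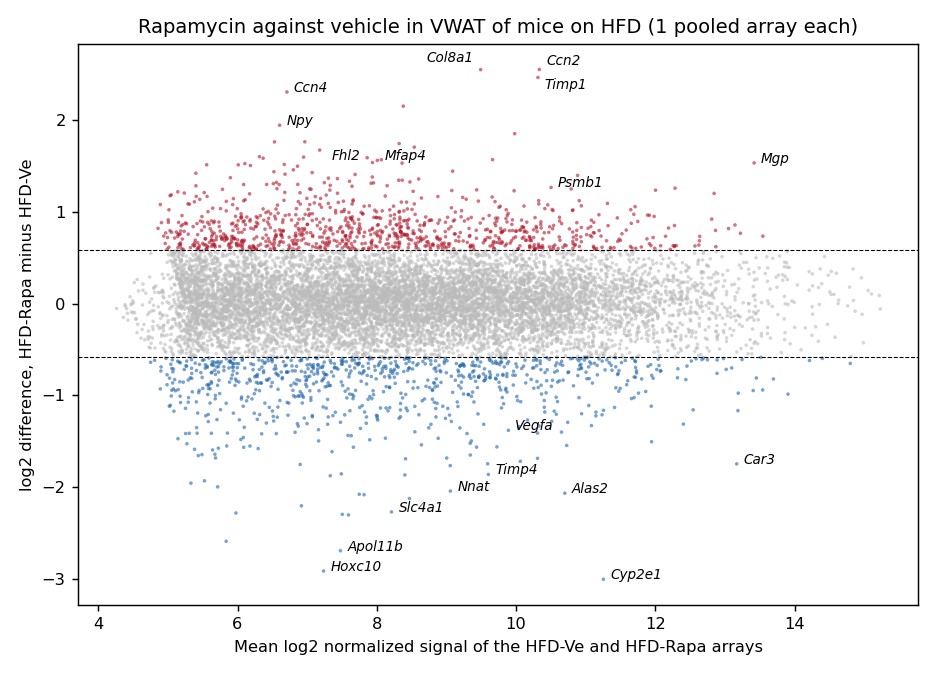
Each point is 1 of 10603 genes, with the mean log2 normalized signal of the HFD-Ve and HFD-Rapa arrays on the horizontal axis and the log2 difference between them on the vertical axis. Dashed lines mark 1.5-fold, red points are the 907 higher and blue points the 802 lower genes, and the named genes include Ccn2 at 2.55 and Cyp2e1 at -3.0.

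Of the 12 highest differences among genes detected on both arrays, 5 belonged to genes of the extracellular matrix or its turnover, Ccn2, Col8a1, Timp1, Ccn4 and Mmp13. The other 7 were Npy, described below, the unnamed transcript 2900060B14Rik (2.15 on the log2 scale), the myeloid lectin Clec4d (3.60-fold), the chitinase-like protein Chil1 (3.39-fold), the T cell receptor gamma segment Trgv4 (3.38-fold), the kininogen Kng1 (3.25-fold, its other probe at 0.94) and the neutrophil protein S100a9 (3.18-fold). Ccn2, a matricellular growth factor of fibrosis also known as CTGF, had a log2 signal of 9.15 on LFD, 9.06 on HFD-Ve and 11.61 on HFD-Rapa, which is 5.84-fold higher with rapamycin. The diet arrays thus gave nearly the same level, and only the HFD-Rapa array stood apart. Col8a1, a short-chain collagen of vessel walls and of activated fibroblasts, went from 6.74 on LFD and 8.22 on HFD-Ve to 10.76 on HFD-Rapa (5.83-fold). Timp1, an inhibitor of matrix metalloproteinases, went from 6.40 and 9.08 to 11.54 (5.50-fold). Unlike Ccn2, both of these were already higher on HFD-Ve than on LFD, and HFD-Rapa lay further in the same direction. Each of the 3 genes had a second kept probe, and the lowest probe difference was 2.35 for Ccn2, 2.54 for Col8a1 and 2.36 for Timp1. Ccn4, a relative of Ccn2 induced by WNT signalling, was not detected on LFD, lay at 5.56 on HFD-Ve and reached 7.86 on HFD-Rapa (4.93-fold). Its HFD-Ve signal was close to the lowest detected on that array (5.34). Over the alternative settings its log2 difference ran from 1.30 to 2.34, so the fold depends on the processing.

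The rest of the matrix was divided by type of molecule rather than raised as a whole. Of 31 measured matricellular and elastic fibre genes, out of 38 listed, 11 were higher and 3 lower, with a median of 0.31. The higher ones included the microfibril protein Mfap4 at 2.94-fold, Spon1, a secreted adhesion protein, at 2.85-fold, tenascin C (Tnc) at 1.06 on the log2 scale, and elastin itself (Eln) at 1.59-fold. Mgp, a matrix protein that inhibits calcification, was outside the list but among the brighter genes of the array, and it went from 11.10 on LFD and 12.65 on HFD-Ve to 14.18 on HFD-Rapa (2.89-fold). Sparc, a collagen-binding protein that is abundant in fat, moved the other way by 1.54-fold. Of 32 proteoglycan and hyaluronan genes, 7 were higher and 5 lower. The large proteoglycan versican (Vcan, 1.98-fold), the small one fibromodulin (Fmod, 1.87-fold) and the cell-surface syndecan Sdc1 (2.16-fold) were higher, while Hapln3, a link protein for hyaluronan, was not detected with rapamycin and was at least 1.70-fold lower.

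Collagens showed no common shift. Of 19 measured chains of the fibrillar and network types, 3 were higher (15.8%) and 2 lower (10.5%), with a median of 0.01. The 2 chains of type VIII collagen headed the list, with Col8a2 at 2.35-fold beside Col8a1. The main fibrillar chain Col1a2 was 1.61-fold higher, while Col1a1 and Col3a1 differed by 0.35 and 0.49 on the log2 scale and stayed under 1.5-fold. The basement membrane went the other way. Among 12 laminin, nidogen and related genes 5 were lower and none higher, with a median of -0.33, and Col4a2, a chain of the network collagen of basement membranes, was 1.51-fold lower. Nid1 and Nid2, the proteins that link laminin to collagen IV, were 1.77-fold and 1.70-fold lower. For Nid1 the other kept probe gave a smaller difference of -0.32. Of 17 enzymes of collagen processing and cross-linking only Plod2, which hydroxylates lysines that later carry cross-links, passed 1.5-fold (1.91-fold higher), while lysyl oxidase (Lox) differed by -0.47.

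Among 26 matrix proteases and inhibitors, 4 were higher and 3 lower. The 2 ends of this list were inhibitors of the same family. Timp1 was 5.50-fold higher, and Timp4, the TIMP that adipocytes produce most, fell from 11.96 on LFD and 10.53 on HFD-Ve to 8.67 on HFD-Rapa (3.63-fold lower). Timp2 and Timp3, at 0.01 and -0.21, were close to the bulk of genes. For the collagenase Mmp13 the 2 kept probes gave 1.74 and 0.31, so its size depends on the probe.

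Genes of the actin cytoskeleton and targets of the mechanosensitive factors YAP and SRF were higher more often than the bulk. Of 36 measured, 8 were higher (7 when undetected genes are taken at their bound) and none lower, 29 lay above 0, and the median was 0.29. Fhl2, a LIM-domain protein that follows actin signalling, led with 3.0-fold, from a level not detected on LFD and 7.07 on HFD-Ve to 8.65 on HFD-Rapa. The kinase Nuak2 was 1.76-fold and the muscle LIM-domain protein Csrp2 1.79-fold higher. Actb and the factor Srf itself differed by 0.39 and 0.11. Ccn1, which is regulated much like Ccn2 in many cells, was outside this pattern at -0.05. Contractile and smooth muscle genes were split, with 5 higher and 4 lower of 25. Tpm2, a tropomyosin, was 1.87-fold higher and Tagln, which was not detected on HFD-Ve, at least 1.69-fold higher. The pericyte genes Kcnj8, Abcc9 and Rgs5 were 2.12-fold, 1.81-fold and 1.74-fold lower. Other pericyte-associated genes of this list ranged from -0.47 to 0.68, so pericyte genes did not fall as a set. The smooth muscle genes Acta2 and Myh11 differed by -0.12 and -0.18.

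The promoter of Fhl2 is shown because it holds the one kind of site searched that names an actin-controlled factor, the CArG box bound by SRF. The RefSeq window on GRCm38.p6, minus strand of chr1:43196742-43196981, runs from 220 bases before the annotated start to 20 after it, with the CArG box in capitals.
Fhl2: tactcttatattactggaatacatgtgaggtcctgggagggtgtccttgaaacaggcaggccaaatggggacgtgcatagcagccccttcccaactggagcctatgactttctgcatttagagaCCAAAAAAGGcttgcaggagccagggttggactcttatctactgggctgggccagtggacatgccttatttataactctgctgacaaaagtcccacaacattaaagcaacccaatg
Of the 28 genes of the actin list that had a window, 3 held a CArG box (10.7%) against 1.57% of 27025 gene windows. The other 2 were Fhl1 and Srf, which differed by -0.42 and 0.11, so the 3 promoters with the box did not move together. The TEAD core GGAATG, the site of the partners of YAP, was in 8 of the 28 (28.6%) against 14.6% of all windows, and the 8 genes ranged from -0.46 for Amotl2 to 0.59 for Ankrd1, which was not detected on HFD-Ve. Both strands were searched over 250 bases before and 50 after the start. A match is a string of letters and not a shown binding site. The actin list was drawn up to include SRF and YAP targets, so an excess of their sites over all genes is no independent support. In the other lists searched the TEAD core ranged from 3.85% of windows (immediate early genes) to 33.3% (mesothelial genes). Among the 8 of the 12 highest genes with a window, 1 held the TEAD core and none held a CArG box.

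The endothelial list held the highest count of lower genes of all lists and families counted. By share (64.5%) it came after the smaller sets of red cell genes (75%) and carbonic anhydrases (66.7%). Of 36 listed endothelial identity genes 31 were measured, 20 of them lower and 1 higher, with a median of -0.74. A bulk array cannot tell fewer cells of a type from less RNA per cell, for these and all other sets. Sox7, a transcription factor of the endothelium, fell from 9.36 on LFD and 7.95 on HFD-Ve to 6.64 on HFD-Rapa (2.48-fold lower). Nos3, the endothelial nitric oxide synthase, was at 10.09, 9.65 and 8.44 (2.32-fold lower), and its 3 kept probes lay between -1.21 and -1.11. Sox7 was already lower on HFD-Ve than on LFD by a similar step, whereas most of the fall of Nos3 lay between HFD-Ve and HFD-Rapa. The angiopoietin receptor Tek and Gpihbp1, which anchors lipoprotein lipase to capillaries, were each 2.17-fold lower. VE-cadherin (Cdh5), the junction protein, was at 9.01 on LFD, 9.20 on HFD-Ve and 8.17 on HFD-Rapa (2.05-fold lower), so that only the HFD-Rapa array was low. Outside the list, the connexin Gja4 of arterial endothelium was 2.19-fold lower, and the adhesion receptors Adgrl4 and Adgrf5 of vessels were 2.24-fold and 2.03-fold lower. Lymphatic markers did not share this direction. Pdpn was 1.86-fold higher and Lyve1 differed by 0.36, although both are also made by other cells of fat. Vwf, Eng and Plvap were close to 0, at -0.19, -0.04 and -0.01.

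Vegfa, the main growth factor of endothelial cells, was itself lower. Its log2 signal was 11.48 on LFD, 10.58 on HFD-Ve and 9.20 on HFD-Rapa, or 2.60-fold lower, and its 2 kept probes agreed within 0.01 (-1.39 and -1.38). The hypoxia list to which it belongs had no common direction, with 5 lower and 4 higher of 23 and a median of -0.27. Besides Vegfa, the vasodilator peptide Adm (1.79-fold), the stress inhibitor of mTOR Ddit4 (2.27-fold) and the oxygen-sensing factor Epas1 (1.78-fold) were lower. Ankrd37 was 2.05-fold, the haem oxygenase Hmox1 1.80-fold and the glucose transporter Slc2a1 1.65-fold higher. The glycolytic genes Pgk1 and Ldha differed by 0.13 and -0.29.

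Genes of red cells and of iron handling were low on the HFD-Rapa array. Of 14 listed red cell genes 8 were measured and 6 were lower (5 at the bounds), none was higher, and the median was -1.17, or -0.85 at the bounds. Slc4a1, the band 3 anion exchanger of the red cell membrane, was at 7.91 on LFD, 9.34 on HFD-Ve and 7.08 on HFD-Rapa (4.81-fold lower). Alas2, which makes haem in erythroid cells, was at 10.09, 11.73 and 9.67 (4.18-fold lower), and Tfr2, a transferrin receptor of erythroid cells and liver, at 6.38, 8.02 and 5.82 (4.59-fold lower). For all 3 the HFD-Ve array was the high one, and LFD and HFD-Rapa lay within 1 log2 unit of each other. Trim10, an erythroid ring-finger protein, was seen only on HFD-Ve and was at least 2.06-fold lower on HFD-Rapa. The globins, whose probes cannot separate near-identical copies, were lower as well. Hba-a1 was at 14.83, 15.13 and 14.48 (1.57-fold lower) and Hbb-bt was 1.49-fold lower, its other probes between -0.87 and -0.77. For Hbb-bs the brightest probe gave -0.43 and the other 5 lay between -1.04 and -0.71, and the dimmer Hbb-b2, at 8.16, 8.42 and 6.56, was 3.61-fold lower. The brightest globin probes stood near the top of the signal range. The list also holds the carbonic anhydrases Car1 and Car2. Of the 31 genes of iron and haem handling, 7 were lower and 3 higher. The copper-dependent iron oxidase Heph was 2.25-fold, transferrin (Trf) 1.92-fold and the last haem enzyme Fech 1.82-fold lower. The amount of blood left in each pool was not measured otherwise.

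The carbonic anhydrases, enzymes that interconvert carbon dioxide and bicarbonate, were mostly lower. Of 15 named on the array 9 were measured, 6 of them lower (4 at the bounds) and 1 higher, with a median of -0.89, or -0.34 with undetected genes at their bound. With no detection filter the median was -0.14. Car3, which is very abundant in fat, had log2 signals of 14.56, 14.04 and 12.30 on LFD, HFD-Ve and HFD-Rapa (3.35-fold lower). Car4, an enzyme of capillary membranes, was 2.19-fold and the mitochondrial Car5b 1.85-fold lower. Car2, found in red cells and elsewhere, was not detected on HFD-Rapa and was at least 2.07-fold lower. The hypoxia-responsive Car9 was the exception at 1.59-fold higher.

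**Figure D2:**
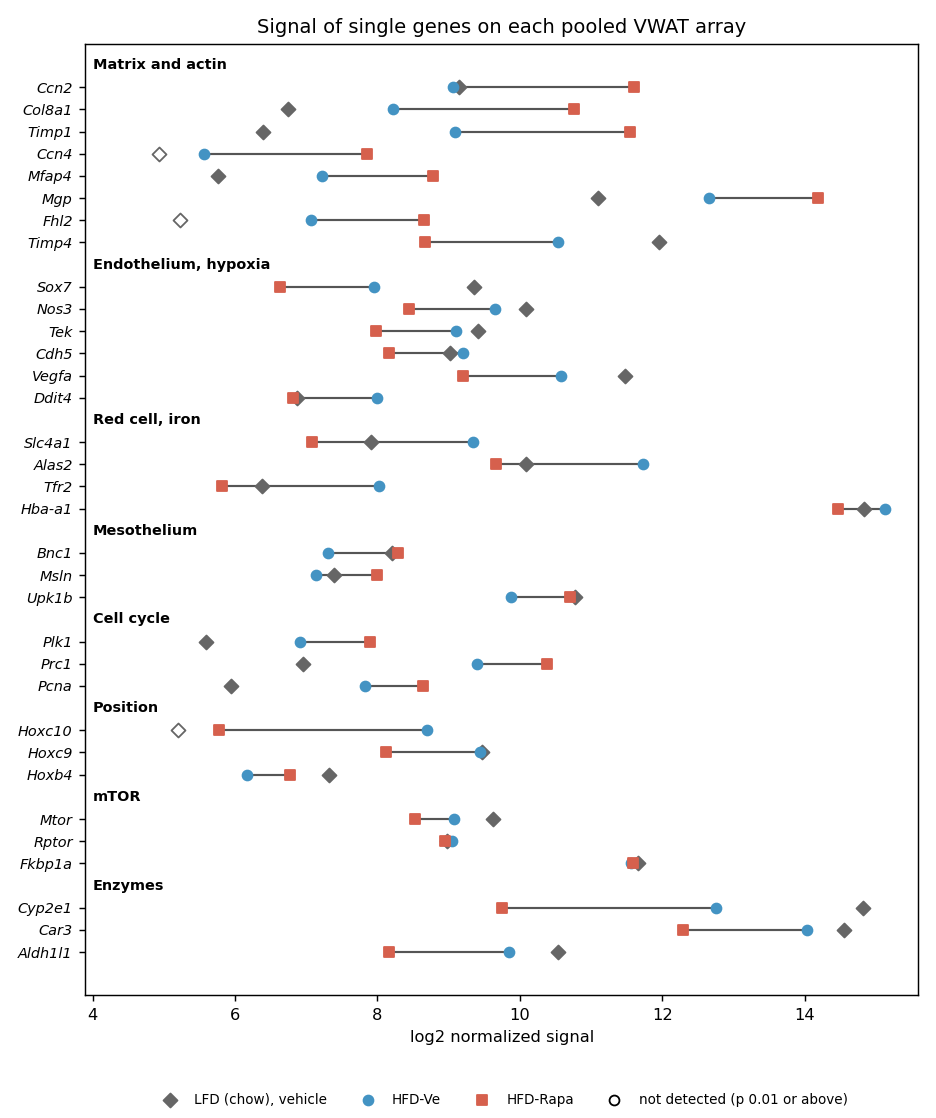
Log2 normalized signal of 33 genes on the LFD, HFD-Ve and HFD-Rapa arrays, grouped by role, with a line joining the 2 HFD arrays and open symbols for signals that were not detected. Ccn2 runs from 9.06 on HFD-Ve to 11.61 on HFD-Rapa while Rptor and Fkbp1a hardly move.

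Mesothelial genes were higher as a set. Of 20 listed 16 were measured, 11 were higher (10 at the bounds) and none lower, and the median was 0.71. Bnc1, a zinc-finger factor that marks mesothelium, was at 8.20 on LFD, 7.31 on HFD-Ve and 8.29 on HFD-Rapa (1.97-fold higher). Mesothelin (Msln) was at 7.39, 7.14 and 7.99 (1.80-fold higher), and the uroplakin Upk1b at 10.77, 9.88 and 10.70 (1.77-fold higher). For Bnc1 and Upk1b the LFD and HFD-Rapa levels were nearly equal and the HFD-Ve level was the low one. Rspo1, an enhancer of WNT signalling, was 1.94-fold and the protease inhibitor Slpi 1.89-fold higher. Of the simple keratins of this epithelium Krt7 was 1.73-fold higher and Krt18, not detected on HFD-Ve, at least 1.40-fold higher, and Krt14, a keratin of stratified and glandular epithelium, was 1.90-fold higher. Cldn15 was at -0.07. Cldn10, a claudin outside the list, was 2.03-fold higher with 3 kept probes that were all at 0.98 or above, and Aldh1a2, a retinoic acid synthase that mesothelium also makes, was 2.07-fold higher. How much mesothelial surface entered each pool was not measured.

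Genes of the cell cycle and DNA replication held the highest count of higher genes of all lists and families counted. By share (47.7%) they came after some smaller lists, among them the lymphocyte markers (100%) and mesothelial genes (68.8%). Of 61 listed 44 were measured, 21 were higher and 1 lower, 38 lay above 0, and the median was 0.58. The mitotic kinase Plk1 was at 5.59 on LFD, 6.92 on HFD-Ve and 7.90 on HFD-Rapa (1.98-fold higher). Prc1, which bundles spindle microtubules, was at 6.96, 9.40 and 10.38 (1.97-fold), and the replication clamp Pcna at 5.94, 7.83 and 8.64 (1.75-fold). In each of them the step from LFD to HFD-Ve was the larger one and the step to HFD-Rapa went further in that direction. Survivin (Birc5), thymidine kinase (Tk1) and cyclin D1 (Ccnd1) were 1.91-fold, 1.87-fold and 1.76-fold higher. Among 23 kinesins, microtubule motors, 6 were higher and 1 lower. Kif2c and Kif15, which act in mitosis, were 2.18-fold and 2.0-fold higher, but the highest was Kif1a, a motor of axonal vesicles, at 2.53-fold, and the transport motor Kif21a was 1.86-fold lower. Cell cycle inhibitors differed among themselves. Cdkn2c, a blocker of the cyclin D kinases that is abundant in fat, was 1.76-fold lower, Cdkn1a was at 0.04, and Cdkn1b, not detected on HFD-Ve, was at 0.54 with a bound of 1.21-fold.

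Leukocyte markers moved in the same direction on these arrays. Of 16 measured macrophage markers 6 were higher and none lower with a median of 0.51, and all 9 measured lymphocyte markers were higher with a median of 0.97. Of 2 detected genes of a panel for lymph node stroma, the chemokine Ccl21a differed by 0.40 and stayed under 1.5-fold. Ltf was not detected on HFD-Ve and was at least 2.68-fold higher. Neutrophils and glands make Ltf, so its rise cannot be assigned to lymph node stroma. Adipocyte identity genes moved the opposite way, with 11 of 18 lower, none higher and a median of -0.90, although leptin (Lep) differed by only -0.08. Shorter marker panels gave smaller shifts for adipocytes (2 of 6 lower, median -0.53) and macrophages (none of 3 past 1.5-fold, median 0.44). All 3 T cell markers of these panels were higher (median 1.02), and the 6 fibroblast and progenitor markers had a median of 0.10. The part of such shifts in cell content in the cell cycle, matrix, vascular and mitochondrial differences was not tested.

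Histone genes did not follow the cell cycle genes as a block. Of 43 measured, 7 were higher and 11 lower, and the split fell between histone types. Among 13 genes of the H2A series 7 were higher and 2 lower, while all 6 measured H4 genes were lower, by between 0.62 and 1.01 on the log2 scale, and the 10 H2B genes stayed within 1.5-fold with a median of -0.34. H2ac22 was at 7.70, 10.19 and 11.58 on LFD, HFD-Ve and HFD-Rapa (2.63-fold higher) and H4c1 at 9.92, 10.18 and 9.33 (1.81-fold lower). The H2A genes share long stretches of nearly identical sequence, so their probes may read the same RNA and cannot be counted as separate evidence. The H2A genes with 2 kept probes show how far this goes. H2ac10 had probes at -0.23 and 1.41, and H2ac20 at -1.32 and 0.23.

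Most partners and regulators of mTOR changed little at the RNA level, and Mtor itself was somewhat lower. Of 44 listed genes of the mTOR complexes and their regulators 39 were measured, none was higher and 3 were lower, and the other 36 lay between 1.47-fold lower and 1.30-fold higher. The median was -0.04. Mtor, the kinase, was at 9.62 on LFD, 9.08 on HFD-Ve and 8.53 on HFD-Rapa (1.47-fold lower), with its 2 probes at -0.55 and -0.44. Over the alternative settings its difference ran from -0.70 to -0.47, so it passed 1.5-fold under some of them. The subunits that define the complexes, Rptor for complex 1 and Rictor for complex 2, differed by -0.10 and -0.04, and the shared subunit Mlst8 by -0.03. The inhibitory subunit Deptor, abundant in fat, was at 0.06. The 3 lower genes were Ddit4 (2.27-fold) and Sesn2 (1.61-fold), both stress-induced brakes on complex 1, and Prr5 (1.52-fold), a subunit of complex 2. For Prr5 the smallest difference among 3 kept probes was -0.30. The close relatives of the first pair did not follow, since Ddit4l was at 0.12, Sesn1 at 0.37 and Sesn3 at -0.45. Upstream, the tumour suppressors Tsc1 and Tsc2 were at 0.13 and -0.11 and the GTPase Rheb at -0.27. Among the amino acid sensors and lysosomal anchors, Castor1 and Castor2 were at -0.34 and 0.23, Depdc5, Nprl2 and Nprl3 at -0.03, -0.04 and -0.47, Flcn and Fnip1 at 0.02 and 0.28, and Lamtor1 and Lamtor2 at 0.04 and 0.09. The Rag GTPases Rraga, Rragc and Rragd were at 0.09, -0.17 and 0.21, Rragd on signals not detected on HFD-Ve. Akt1s1, Mapkap1, Prr5l, Tbc1d7 and Rhebl1 were at -0.20, -0.07, -0.35, -0.26 and 0.31, Prr5l on signals not detected on HFD-Rapa and Rhebl1 on signals not detected on HFD-Ve. Downstream, the translation repressors Eif4ebp1 and Eif4ebp2 were at -0.54 and 0.03, the adaptor Grb10 at -0.30, the autophagy kinase Ulk1 at -0.07 and the lysosomal factor Tfeb at -0.03.

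The FK506-binding proteins include the cellular receptor of rapamycin. Fkbp1a, which encodes FKBP12, had log2 signals of 11.66, 11.56 and 11.59 on LFD, HFD-Ve and HFD-Rapa and was level across the arrays. The larger family members Fkbp4 and Fkbp5 differed by 0.23 and -0.07. Of the 11 measured members 2 were higher, Fkbp15, an actin-associated protein of early endosomes, at 1.93-fold and Fkbp11, a protein of the secretory pathway that is abundant in plasma cells, at 1.77-fold. The median of the family was 0.05.

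The protein synthesis machinery moved in opposite small steps in the cytosol and the mitochondria. Of 55 measured cytosolic ribosomal protein genes 54 lay above 0, against 52.4% of all genes, and the median was 0.34, but only 3 passed 1.5-fold upward and 1 downward. Rpl13a was at 9.09, 9.89 and 10.61 on LFD, HFD-Ve and HFD-Rapa (1.65-fold higher), Rpl34 at 12.20, 12.31 and 12.94 (0.64 on the log2 scale) and the ribosomal protein paralog Rpl22l1 at 6.23, 7.66 and 8.45 (1.74-fold). Rps6, the ribosomal protein that the mTOR target S6 kinase phosphorylates, differed by 0.39. Rps4l was the exception below 0 at -0.74. These genes have many processed copies in the genome, and which copy a probe reads was not resolved here. Of 73 mitochondrial ribosomal protein genes none passed 1.5-fold, 47 lay below 0 and the median was -0.07. Translation factors stayed at the centre (41 measured, 1 higher, none lower, median -0.01), with Eif6, an anti-association factor of the large subunit, as the higher one at 1.55-fold. Of 34 genes of ribosome biogenesis and RNA polymerase I 2 were higher, the nucleolar proteins Nop58 (1.64-fold) and Rrp1b (1.51-fold, its 4 probes between -0.28 and 0.68), and the median was 0.13. Of 19 tRNA synthetase genes 1 was higher, Cars, which was not detected on HFD-Ve and was at least 1.51-fold higher.

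Ribosomal protein mRNAs in mammals start with a run of pyrimidines, the 5′ terminal oligopyrimidine motif, through which mTOR complex 1 controls their translation. The starts of 4 members are shown from RefSeq on GRCm38.p6, from 30 bases before the annotated start to 30 after it, with the run in capitals. Rpl13a lies on the minus strand at chr7:45128716-45128775, Rpl34 on the minus strand at chr3:130730369-130730428, Rps26 on the minus strand at chr10:128626477-128626536 and Rps6 on the minus strand at chr4:86857338-86857397.
Rpl13a: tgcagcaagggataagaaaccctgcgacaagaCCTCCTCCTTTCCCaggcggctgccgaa
Rpl34: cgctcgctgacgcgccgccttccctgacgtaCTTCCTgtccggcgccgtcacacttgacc
Rps26: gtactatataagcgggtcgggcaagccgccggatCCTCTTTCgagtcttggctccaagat
Rps6: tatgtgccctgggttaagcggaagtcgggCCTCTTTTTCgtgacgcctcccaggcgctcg
A run was taken as a C followed by at least 4 pyrimidines that began within 10 bases of the annotated start, a rule chosen after the ribosomal values had been seen. It was found in 26 of the 46 ribosomal genes with a window (56.5%) and in 30.8% of all 27025 genes with a window. In the other lists searched the share ran from 18.9% (endoplasmic reticulum stress and amino acid response) to 52.6% (matricellular genes, 10 of 19). It was 50% for mesothelial genes (6 of 12), so the rule did not single out ribosomal genes. The difference in mRNA signal did not follow the run, with medians of 0.36 for the 26 genes with the run and 0.33 for the 20 without. The arrays measure mRNA amount, and translation was not measured.

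Respiratory chain genes of the nucleus lay slightly below the bulk. Of 32 complex I subunits 27 lay below 0, 1 was lower, none was higher, and the median was -0.14. The lower one was Ndufs3, at 1.51-fold. The 16 ATP synthase subunits had a median of -0.22 and none passed 1.5-fold. Of the 14 complex IV subunits 3 were lower and 2 higher, all of them tissue-restricted isoforms. Cox8b, the heart, muscle and brown fat form, was at 11.29, 11.15 and 9.47 (3.21-fold lower), and Cox7a1, another form of oxidative tissue, was 1.87-fold lower, and Cox4i2, not detected on HFD-Rapa, was at least 1.89-fold lower. The muscle form Cox6a2 and the testis form Cox6b2 were 1.51-fold and 1.55-fold higher, whereas the general forms Cox4i1 and Cox6c were at -0.18 and 0.00. Of 35 mitochondrial carriers of the SLC25 family 9 were lower and 2 higher (1 at the bounds), with a median of -0.20, among them Slc25a35, a carrier with no settled substrate, at 2.47-fold and the citrate carrier Slc25a1 at 1.70-fold lower. The coactivator Ppargc1a, a regulator of mitochondrial genes, was not detected on HFD-Rapa and was at least 1.62-fold lower, and the inner membrane fusion gene Opa1 was 1.84-fold lower.

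**Figure D3:**
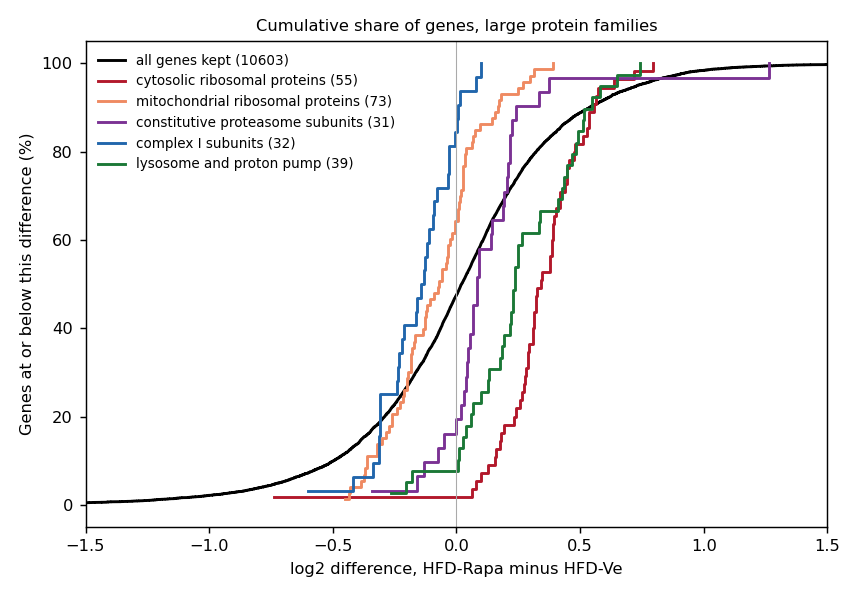
Cumulative share of genes at or below each log2 difference, HFD-Rapa minus HFD-Ve, for all 10603 genes and for 5 protein families (number of genes measured in brackets). The cytosolic ribosomal curve, with a median of 0.34, lies to the right of the curve for all genes and the complex I curve, with a median of -0.14, to its left.

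Degradation pathways differed from each other. Of 35 autophagy genes none was higher and 1 lower, Map1lc3a, a form of the autophagosome protein LC3 (1.52-fold), and Sqstm1, a cargo receptor, was at 0.01. The lysosome and its proton pump had 36 of 39 genes above 0 and a median of 0.23, but only 2 passed 1.5-fold, the pump subunit Atp6v0b (1.67-fold) and cathepsin L (Ctsl, 1.57-fold). The proteasome was at the centre (median 0.08 over 31 subunits) except for Psmb1, a subunit of the core particle, which was at 10.89 on LFD, 9.87 on HFD-Ve and 11.13 on HFD-Rapa (2.40-fold higher) on its single kept probe. The next highest subunit, Psma7, was at 0.37.

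Stress programmes held shares of higher and lower genes that were, for chaperones and oxidative stress, close to those of all genes. Of 40 genes of the endoplasmic reticulum stress and amino acid response 4 were higher and 6 lower. The lower side held biosynthetic enzymes. Phgdh, the first enzyme of serine synthesis, was at 9.46, 8.70 and 7.56 on LFD, HFD-Ve and HFD-Rapa (2.20-fold lower), Cth and Cbs of the transsulfuration pathway were 2.08-fold and at least 1.37-fold lower, and asparagine synthetase (Asns) was 1.55-fold lower. The factor that drives several of them, Atf4, was at 0.28, and its targets Trib3 and Ddit3 at -0.09 and 0.07. The higher side held the chaperone partner Sdf2l1 (1.88-fold) and the stress factor Atf3 (1.86-fold). In the 37 heat shock and chaperone genes 4 were higher (10.8%) and 3 lower (8.11%). Hspa1a, the inducible HSP70, was 1.84-fold higher, and Hspb8 was at -0.57. Of 34 oxidative stress genes 3 were higher (8.82%), among them the sulfiredoxin Srxn1 (2.10-fold) and the glutathione synthesis gene Gclm (1.55-fold), and 4 lower (11.8%), among them the extracellular superoxide dismutase Sod3 (2.08-fold) and catalase (Cat, 1.54-fold). Immediate early genes, the first to respond to growth factors and tissue handling, had 6 higher and none lower of 30, with the phosphatases Dusp6 and Dusp5 at 1.65-fold and 1.63-fold, while Egr1 and Fos were at -0.09 and 0.41.

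Enzymes of amino acid and one-carbon metabolism and glutathione transferases were lower more often than higher, while cytochrome P450 genes were split. Cyp2e1, a cytochrome P450 of ethanol and ketone oxidation, had the lowest difference of all genes detected on both arrays, with log2 signals of 14.82 on LFD, 12.75 on HFD-Ve and 9.75 on HFD-Rapa (8.0-fold lower). The steps from LFD to HFD-Ve and from HFD-Ve to HFD-Rapa went the same way. Cyp2f2 was 2.67-fold lower, while Cyp7b1, an oxysterol hydroxylase, was 2.44-fold higher, and in all 18 measured P450 genes 3 were higher and 3 lower. Of 29 amino acid and one-carbon genes 8 were lower (7 at the bounds) and 1 higher. The folate enzyme Aldh1l1 was at 10.54, 9.84 and 8.16 (3.20-fold lower), its mitochondrial relative Aldh1l2 was at 0.25, and proline dehydrogenase (Prodh) was 2.37-fold lower. Of 15 aldehyde dehydrogenases 6 were lower and 1 higher, but 9 lay above 0 and the median was 0.06. Of 17 glutathione transferases 4 were lower and none higher, with a median of -0.24, led by Gstz1 of tyrosine breakdown at 1.93-fold. Nat8l, which makes N-acetylaspartate and is known from brain and brown fat, was 4.23-fold lower, and Vnn3, a vanin pantetheinase, was 4.21-fold lower, each with 2 probes past 1.5-fold. Among the other lowest genes were Kcne1l, a potassium channel subunit (4.92-fold lower), Cidea, a lipid droplet protein of brown and beige fat (4.90-fold lower), Apol11b of the apolipoprotein L family, at 6.98, 8.82 and 6.13 on LFD, HFD-Ve and HFD-Rapa (6.45-fold lower), the imprinted gene Nnat, which encodes neuronatin, at 10.36, 10.08 and 8.04 (a log2 difference of -2.04), and C6, a component of the terminal complement complex (4.35-fold lower). Nnat was level between the LFD and HFD-Ve arrays, whereas Apol11b was high on HFD-Ve alone.

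The signalling lists mostly held both higher and lower members. The WNT list had 8 higher (28.6%) and 4 lower (14.3%) of 28. The higher ones were mostly secreted antagonists or modulators, with Dkk3 at 2.22-fold, Sfrp2 at 1.85-fold and Sfrp4 at 1.80-fold, against Sfrp5, an antagonist known from fat, at 1.76-fold lower. The ligand Wnt5a and the receptor Fzd4 were 1.92-fold and 2.35-fold lower, and Apcdd1, a membrane inhibitor of the pathway, was 2.87-fold lower with both probes below -1.39. In the TGF-beta, BMP and activin list 5 were higher and 5 lower of 40. That is 12.5% each way, not far from the 8.55% and 7.56% of all genes. The activin subunit Inhba was not detected on HFD-Ve and was at least 1.51-fold higher, Gdf3 was 2.01-fold higher, and follistatin (Fst), which binds activin, was 1.73-fold lower. Of 34 growth factor ligands and receptors 6 were lower (5 at the bounds) and 1 higher. They included Fgf10, a factor of adipocyte precursors, at 1.85-fold with 3 kept probes that were all at -0.89 or below, the FGF21 co-receptor Klb at 1.88-fold, and Igf2 at 1.77-fold. None of 17 Notch and Hedgehog genes passed 1.5-fold. Of 29 G protein-coupled receptors 10 were lower (9 at the bounds) and 4 higher, from the prostaglandin receptor Ptger3 at 2.76-fold lower to the sphingosine phosphate receptor S1pr2 at 2.03-fold higher. Among ion channels, the glial and neuronal sodium channel gene Scn7a was 2.33-fold lower and the calcium-activated potassium channel Kcnn4 1.99-fold higher.

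Few nerve genes were detected, 7 of 27 listed. Of these 3 were higher (2 at the bounds) and 1 was lower, the sodium channel gene Scn7a at -1.22 on the log2 scale. Npy, neuropeptide Y of sympathetic fibres and of some immune and fat cells, was not detected on LFD, at 5.63 on HFD-Ve and at 7.57 on HFD-Rapa (3.84-fold higher). The Npy difference ran from 1.06 to 1.97 on the log2 scale over the alternative settings. Uchl1, a neuronal ubiquitin hydrolase, was 2.70-fold higher, and Ncam1, not detected on HFD-Ve, was at least 1.41-fold higher. The Schwann cell markers S100b and Sox10 were detected on no array, so the origin of these signals is not known.

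Among genes that record body position, all measured members of the Hoxc cluster lay below 0, while the other Hox clusters held both signs. Hoxc10 was the second lowest gene of the comparison. It was not detected on LFD, was at 8.69 on HFD-Ve and 5.78 on HFD-Rapa (7.51-fold lower), and its other probe gave -2.09. Its cluster neighbours were lower as well, with Hoxc9 at 2.49-fold and Hoxc6 at 1.72-fold, and Hoxc8, which was detected on neither HFD array, at -0.24. Hoxc9 was level between LFD and HFD-Ve (9.47 and 9.43), so that it was low only on HFD-Rapa, whereas Hoxc10 was high only on HFD-Ve. In the Hoxb cluster 4 of 5 measured genes lay above 0, namely Hoxb2 (0.16), Hoxb4 (0.59), Hoxb6 (0.36) and Hoxb7 (0.44), and Hoxb5 was at -0.17. In the Hoxa cluster Hoxa2, Hoxa4, Hoxa5 and Hoxa7 were at -0.31, -0.38, 0.24 and 0.03, and Hoxa9, detected only on HFD-Ve, was at -0.88 with a bound of 1.12-fold. Hoxd4, Hoxd8 and Hoxd9 were at 0.24, -0.15 and -0.24. Outside the clusters, En1 and Irx3, homeobox factors of limb, trunk and subcutaneous tissue, were 2.25-fold and 2.02-fold lower. En1 was, like Hoxc10, not detected on LFD and highest on HFD-Ve (7.09). Gata6 and Tcf21, factors of visceral fat and its mesothelium, were at 0.50 and 0.04, and the cofactors Meis1 and Meis2 at 0.22 and -0.02. The other, dimmer probes gave 0.78 and 0.69 for Meis1 and 0.59 and 0.05 for Meis2, so these values depend on the probe. Whether the 3 pools were cut from exactly the same site of the depot was not tested.

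The sex-linked genes give the male share of each pool only roughly. The Y-linked Eif2s3y, Uty and Kdm5d were detected on all 3 arrays and differed by -0.40, -0.38 and 0.00, and their X-linked partners Eif2s3x, Kdm6a and Ddx3x by -0.08, 0.26 and 0.45. None passed 1.5-fold. Of the 4 epididymal markers none was detected on any array, but in the longer list of male tract genes Svs5, a seminal vesicle protein, was detected on LFD and HFD-Rapa and was at least 1.96-fold higher with rapamycin. Of the 4 markers of ovary and uterus 1, Ovgp1, was detected, on LFD alone, and 2 of the 4 measured genes of the longer list were higher, Ltf and Inhba, which other cells also make. Of 6 measured skeletal muscle genes 2 were lower, Pvalb at 2.20-fold and Myl1 at 1.72-fold, and Acta1 differed by -0.24. In this list 4 genes lay below 0 and 2 above, the highest at 0.53. The part of such tissue in the results was not tested.

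Clock genes did not move together. Arntl, Clock and Dbp stayed under 1.5-fold, at -0.14, -0.31 and -0.04. Of 16 clock genes 3 were lower, Nr1d1 at 1.98-fold, Cry2 at 1.80-fold and Per3, not detected on HFD-Rapa, at least 1.67-fold. None was higher, and the highest member was at 0.46. The hour of death is not stated. Of 14 targets of glucocorticoids and other steroids 1 was lower, Hsd11b1, which regenerates active glucocorticoid in fat. It was at 14.36 on LFD, 12.21 on HFD-Ve and 11.18 on HFD-Rapa (2.03-fold). The receptor gene Nr3c1 was at -0.39 and the sensitive targets Fkbp5 and Tsc22d3 at -0.07 and -0.21. The other kept probes of Tsc22d3 gave -1.03 and -0.04.

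**Figure D4:**
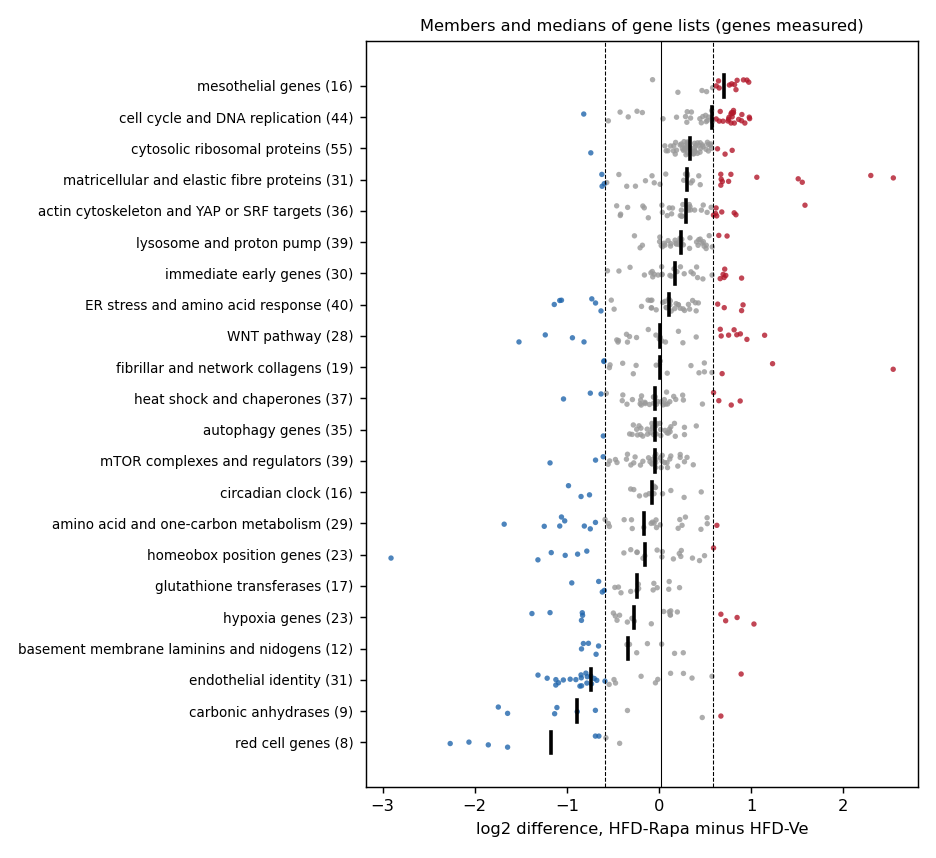
Log2 difference, HFD-Rapa minus HFD-Ve, of every measured member (points) and the median (black bar) of 22 gene lists, with the number of genes measured in brackets. Dashed lines mark 1.5-fold and the thin line the median of all genes, and the medians run from -1.17 for red cell genes to 0.71 for mesothelial genes.

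Probes of a gene mostly moved together. Among the 3941 genes with several kept probes, 137 had all probes at least 1.5-fold higher and 177 all at least 1.5-fold lower. Of 572 genes with several probes that were past 1.5-fold by the brightest, 30 had another probe of opposite sign. In 3 genes probes passed 1.5-fold in both directions. They were Npc1, a lysosomal cholesterol exporter, with probes from -0.73 to 1.0, Sulf2, a sulfatase of heparan sulfate, from -0.63 to 0.81, and the membrane skeleton gene Epb41l2, from -0.87 to 0.60. For Chd1, a chromatin remodeller, 4 probes ranged from -0.23 to 1.53, and for gelsolin (Gsn) 2 probes gave -1.56 and 0.15, so no single value describes either. Transcript isoforms were not resolved.

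**Figure D5:**
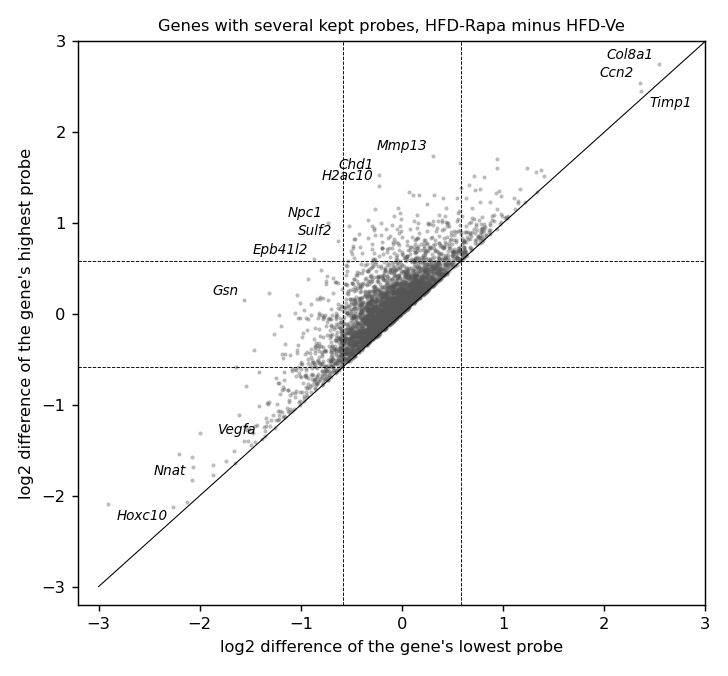
For the 3941 genes with several kept probes, the log2 difference (HFD-Rapa minus HFD-Ve) of the lowest probe on the horizontal axis and of the highest probe on the vertical axis, with the diagonal for equal values and dashed lines at 1.5-fold. Ccn2, Col8a1 and Timp1 lie near the diagonal at the upper right, and the 3 genes in the upper left corner region are Npc1, Sulf2 and Epb41l2.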

How the data were processed

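RNA of 5 mice per group was pooled, labelled and hybridised to 1 Illumina MouseWG-6 v2 BeadChip array per group, and the authors exported probe signals with GenomeStudio, whose version is not given in the sources used here. The deposited values were probe intensity on a linear scale, not normalized, with a detection p-value for each probe and array. The authors also deposited a processed intensity table, used only as an alternative. In R 4.3.3, limma 3.58.1 (neqc, background from the detection p-values, offset 16, quantile normalization over the 3 arrays) gave log2 signals, from which each log2 difference and fold was computed in Python 3.11.15. Of 45281 probes, 18954 passed a detection p of 0.01 on 1 array or more and were kept, and each array alone detected between 16951 and 17966. GEO's annotation table gave 1 gene for 34885 probes and several for 18, and 34807 matched RefSeq. The 2676 kept probes without a named gene were left out. Genes with several kept probes were represented by the brightest. Where a gene was not detected on its dimmer array, the fold was computed against the lowest detected signal of that array, or the gene's own signal if that was higher, and is written as "at least". Arrays were not replicated, so their number limits the precision, and no test was run.

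The gene lists and families were chosen with earlier results of these data known. The rule for named genes took the 12 highest and 12 lowest, the members that differed most in each list (4 at most), the highest and lowest member of each family, all measured mTOR, sex-linked and position genes, and genes with discordant probes. It gave 340 genes, of which 138 were left out of the text after their values were seen. Of the 288 genes in the text, 86 lay outside the rule and were chosen after their values were seen, among them relatives and family members given for comparison. Alternatives changed the background correction, scaling, detection filter, probe rule, fold threshold and source of the values. Calculations were tested on simulated data. Promoter windows are those of RefSeq (GRCm38.p6), the first window of each gene.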

Additional observations from a re-analysis of the deposited data

How the results depend on the processing

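No replicate could be left out, since each group was 1 pooled array, and no test bears on any difference. No paired analysis was possible because each group held 1 pooled array. For the 22 lists and families of at least 8 genes with a median farther from 0 than the SD between probes (0.21), no median changed sign under the alternatives run. Of all 97 lists and families with enough genes, 34 had a median that changed sign under some setting. The number of genes past 1.5-fold was sensitive to background handling, at 449 higher and 439 lower with no background correction and 453 higher and 436 lower in the authors' processed values. It was 165 and 226 with a 2-fold threshold, and counting probes gave 1551 and 1469. Under median scaling 635 genes were higher and 1130 lower. Of the named genes past 1.5-fold only Sulf2 changed sign, from -0.63 to 0.0852 with the mean of its probes. Counting all named genes, 22 had values on both sides of 0 over the settings, among them H2ac10 and H2ac20, whose probes disagree, and Rictor, Fkbp1a and Timp2, which lay close to 0.

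The medians below moved by at least the SD between probes (0.21). With no background correction and in the authors' processed values the mesothelial median was 0.47 and 0.46, that of keratins and epithelial genes 0.24 and 0.24, that of red cell genes -0.64 and -0.62, that of lymphocyte markers 0.71 and 0.70, that of carbonic anhydrases -0.41 and -0.38, and that of keratins 0.28 and 0.27. With a background offset of 50 the red cell median was -0.79 and the carbonic anhydrase median -0.54. At a detection p under 0.05 the medians were 0.23 for keratins and epithelial genes, -0.69 for red cell genes and 0.23 for keratins. With detection on both high-fat arrays the carbonic anhydrase median was -0.61. With no detection filter the medians were 0.0577 for keratins and epithelial genes, -0.67 for red cell genes, -0.14 for carbonic anhydrases and 0.0249 for keratins. Of the alternatives for these lists and for the counts of genes, 214 stayed within that SD, or within 1.5 times for counts, and 30 did not. Smaller shifts were still large beside some medians, as that of the basement membrane list lay between -0.42 and -0.18, the matricellular one between 0.18 and 0.31, the lysosomal one between 0.12 and 0.25 and the hypoxia one between -0.36 and -0.17. Low signals near background limit the folds of dim genes.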
